A study of Solanum tuberosum with 6 samples.

Results

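Leaf transcripts of the potato (Solanum tuberosum) cultivar KY140 were set against those of the cultivar Atlantic after cold stress (CS), and the same comparison was made in untreated plants. The study calls Atlantic cold-resistant and KY140 cold-sensitive. The comparison rests on 12 of the 18 libraries in the count table. These are 3 libraries of CS-KY140 and 3 of CS-Atlantic, from leaves kept at −4 °C for 12 h, and 3 of KY140 and 3 of Atlantic, from leaves kept at 25 °C. All 4 groups are labelled as wild type and were grown as virus-free tissue culture seedlings on MS medium for 18 days with 16 h of light per day. The sample titles and the study's methods give −4 °C for the treated plants, while the treatment field of the labels reads 12 °C, and −4 °C is used here. Each group is 1 record in the labels with 3 numbered libraries, which the study's methods call biological replicates. No source says whether the replicates were chilled separately, so the p-values measure the spread between these libraries, which may be partly technical.

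Of 114281 genes in the table, 67894 had enough reads to be tested between the cultivars. The genes described in depth are the 5978 that differed between KY140 and Atlantic by the test after cold and did not pass it at 25 °C, called the cold-only genes here. A gene counted as different when its log2 fold change (log2FC), KY140 over Atlantic, was at least 1 in either direction with a Benjamini-Hochberg false discovery rate (FDR) under 0.05 by edgeR's quasi-likelihood test. This rule sorts genes by 2 thresholds. Missing the threshold at 25 °C does not show that the cultivars were alike there, so the change of the difference itself was tested for every gene as an interaction.

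Many plants respond to chilling within hours. Calcium signals and the CBF transcription factors switch on genes for membrane protection, osmolytes and antioxidants, and freezing adds dehydration and wounding of cells. The phenylpropanoid pathway turns phenylalanine into cinnamic acid and then into lignin and flavonoids, and the oxylipin pathway turns linolenic acid into jasmonate, a hormone of wounding and stress. Glutamate decarboxylase makes γ-aminobutyric acid (GABA), an amino acid that builds up in stressed leaves. Cultivated potato is a tetraploid with several copies of each chromosome, and its cultivars differ in sequence from each other and among their own copies.

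The copies matter for what a value means here. Genes are identified by an Atlantic annotation that lists the chromosome copies separately, so that Soltu.Atl.06_4G021450 is a gene on copy 4 of chromosome 6. A further 24264 genes are labelled as new and carry only a number, without a chromosome or copy. Reads of a gene may be split among nearly identical copies, and every value of a single copy is uncertain to that extent. In KY140, a read that differs from Atlantic's sequence may be counted at another copy or not at all. A lower level of a transcript in KY140 and a poorer match of its reads to Atlantic's copies cannot be told apart in a comparison of cultivars. In leaf RNA, fewer cells of a type and less RNA per cell cannot be told apart either. The table holds no gene descriptions, coordinates or sequences, and 0 of its identifiers were found in RefSeq's table of potato genes, so functions are given only for 12 enzyme genes that the study names and leaf markers could not be checked.

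The 12 libraries held 11390279 to 14971945 counts each. Genes with at least 1 count numbered 62388 to 69917 in CS-KY140, 65796 to 74628 in CS-Atlantic, 45305 to 65787 in KY140 and 69173 to 74128 in Atlantic, with KY140 replicate 1 lowest. The untreated KY140 libraries also varied most among themselves. Their biological coefficient of variation, the relative spread between libraries beyond counting error, was 118%, against 59.9% in Atlantic, 66.1% in CS-KY140 and 66.4% in CS-Atlantic. The 100 most abundant genes took 14.3% to 17.7% of the counts in CS-KY140 and 8.86% to 9.82% in CS-Atlantic. At 25 °C they took 15.4% to 17.1% in KY140 and 10% to 10.9% in Atlantic. The part of these library differences in the gene counts below was not tested.

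After cold, 24628 genes (36.3% of those tested) differed between KY140 and Atlantic. Of these, 9652 (14.2%) were higher and 14976 (22.1%) lower in CS-KY140. At 25 °C, 26236 genes (38.6%) differed, 9301 (13.7%) of them higher and 16935 (24.9%) lower in KY140. The cultivars were thus far apart at both temperatures. On log2(CPM + 1), where CPM is the count scaled to a library of 1000000 counts, a CS-KY140 library correlated with a CS-Atlantic library at r = 0.503 to 0.548, and libraries within CS-KY140 at 0.907 to 0.922, as descriptions across genes. Most genes that differed after cold also differed at 25 °C: 18650 genes (27.5%) were called in both, which is 75.7% of the calls after cold and 71.1% of those at 25 °C. Only 31 of these 18650 genes had opposite directions at the 2 temperatures. Across all tested genes the log2FC after cold and at 25 °C correlated at r = 0.846, described across genes, which do not count as replicates. The median log2FC over all tested genes was −0.28 after cold and −0.48 at 25 °C, so the values below are to be read against a centre somewhat below 0.

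**Figure D1:**
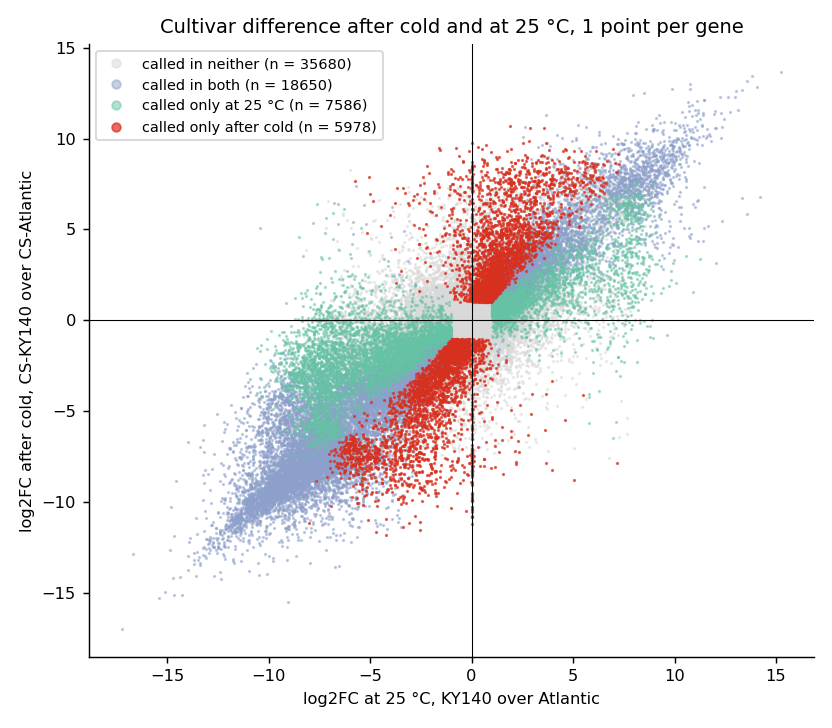
Each point is 1 of the 67894 tested genes, placed by its log2FC at 25 °C (KY140 over Atlantic, x axis) and after cold (CS-KY140 over CS-Atlantic, y axis), and coloured by where it was called. Genes called in both run along the diagonal, and the 5978 genes called only after cold (red) lie mostly on the same side of 0 at both temperatures, above the diagonal where positive and below it where negative.

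The cold-only genes made up 24.3% of the calls after cold and 8.8% of the genes tested. Of the 5978, 3192 (4.7% of the genes tested) were higher and 2786 (4.1%) lower in CS-KY140. Their split thus leaned to higher expression in KY140, 53.4%, whereas 39.2% of all calls after cold were higher. This lean changed with the settings. The share that was higher was 46.7% with the RLE factors, 53.0% with library totals alone, 54.6% with upper-quartile factors, 49.1% with DESeq2, which has its own factors and test, and 45.7% when the treated and untreated libraries were fitted separately. With 1 library left out it ran between 45.4% and 60.7%, and the lower genes were the larger set without CS-Atlantic replicate 1, 2 or 3 (49.4%, 49.5% and 45.4% higher) or KY140 replicate 1 or 3 (46.3% and 45.5%). A larger set, 7586 genes (11.2%), was called only at 25 °C, with 2852 higher and 4734 lower in KY140.

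**Figure D2:**
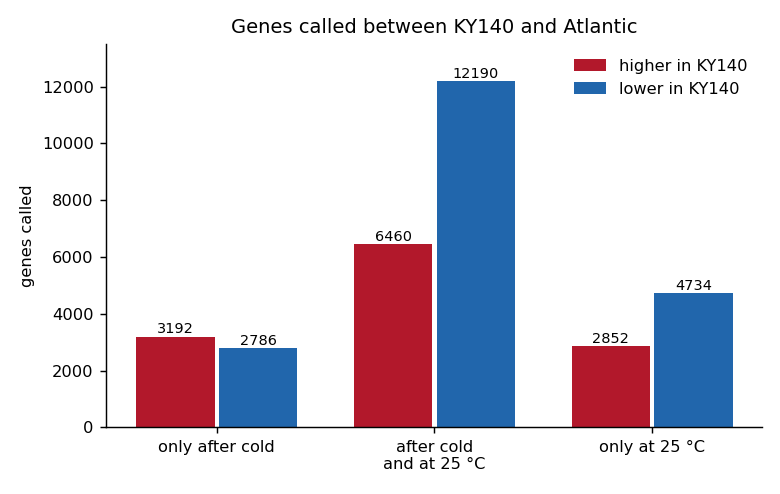
Bars give the number of genes called higher (red) or lower (blue) in KY140 than in Atlantic, for genes called only after cold, at both temperatures (by their direction after cold) and only at 25 °C. Calls only after cold numbered 3192 higher and 2786 lower, near balance beside the 6460 and 12190 called at both.

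Most cold-only genes leaned the same way at 25 °C. Of the 5978, 5378 (90.0%) had a log2FC of the same sign at 25 °C, against 83.3% of all tested genes. The share was 91.7% among genes called only at 25 °C and 71.7% among those called at neither temperature. Among the genes higher in CS-KY140, the median log2FC was 3.07 after cold and 1.06 at 25 °C. The genes lower in CS-KY140 had medians of −3.99 after cold and −1.57 at 25 °C. An FDR between 0.05 and 0.10 at 25 °C was found for 1783 cold-only genes (29.8%), against 9.39% of all tested genes and 12.9% of those called at neither temperature, and 161 passed the FDR there but missed the fold. The FDR at 25 °C of the members ran down to 0.0500022, and that of the genes just outside up to 0.0499964. A log2FC smaller than 1 at 25 °C, in either direction, was found for 2384 cold-only genes (39.9%), and one smaller than 0.5 for 927 (15.5%). The shares were 29.8% and 15.6% of all tested genes, and 50% and 27% of those called at neither temperature. All tested genes include those called at 25 °C, which by the rule cannot have a log2FC smaller than 1 there.

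The overlap of single libraries was counted as well. After cold, all 3 CS-KY140 libraries lay on 1 side of all 3 CS-Atlantic libraries for 5749 cold-only genes (96.2%), against 57.5% of all tested genes, which the rule itself largely fixes. At 25 °C the libraries of KY140 and Atlantic still did not overlap for 2163 cold-only genes (36.2%), against 50.9% of all tested genes. The latter include genes called at 25 °C, which the cold-only genes exclude by the rule. Among genes called at neither temperature the share was 22.3%.

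By level, the medians over the cold-only genes shifted with cold in both cultivars, which does not show that any single gene changed in both. Of those higher in CS-KY140, the median gene averaged 13 CPM in CS-KY140 and 1.69 CPM in CS-Atlantic, against 8.77 CPM in KY140 and 3.94 CPM in Atlantic at 25 °C. Of those lower in CS-KY140, it averaged 0.672 CPM in CS-KY140 and 9.82 CPM in CS-Atlantic, against 1.87 CPM in KY140 and 6.37 CPM in Atlantic. The gap between cultivars was wider after cold in both sets. For the higher set, the median log2FC of cold over untreated was 0.54 in KY140 and −0.90 in Atlantic, and for the lower set −0.83 in KY140 and 0.63 in Atlantic. These shifts use the libraries that chose the genes and are a description.

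**Figure D3:**
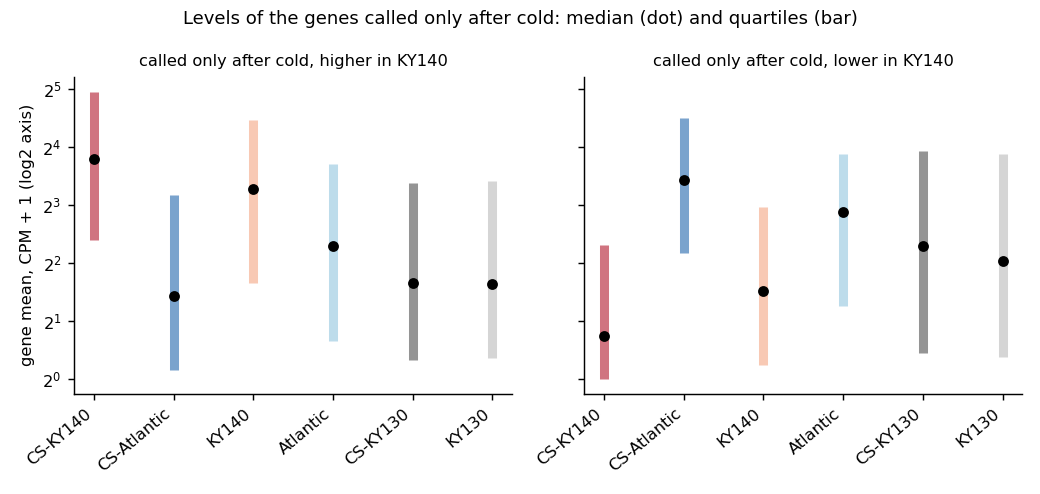
Dots give the median and bars the quartiles, over the cold-only genes, of each gene's mean level in a group (CPM + 1, log2 axis), for the 3192 genes higher (left) and the 2786 lower (right) in CS-KY140. The treated groups lie farther apart than the untreated ones in both panels, and both KY130 groups have lower medians than the CS-KY140 group on the left and higher ones on the right.

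The interaction asked whether the cultivar difference after cold departed from that at 25 °C. It passed an FDR of 0.05 for 7 genes (0.0103% of those tested), 2 with a positive and 5 with a negative change, and 5863 genes (8.64%) had an unadjusted p under 0.05. Among the 5978 cold-only genes, 1 passed, and 1356 (22.7%) had an unadjusted p under 0.05, a share to which their choice on the same libraries contributes. DESeq2 called 954 of the 67894 genes, including all 7 that edgeR called, and gave no adjusted p for 12296. Of the 954, 259 were cold-only genes, which made up 8.8% of the genes tested. Their choice on the same libraries contributes to this count too. For nearly all cold-only genes, therefore, a difference confined to cold was not shown by edgeR's test. The count of 7 depended on single libraries, being 791 without KY140 replicate 2, 25 without KY140 replicate 1, 13 without CS-KY140 replicate 3 and 2 without CS-KY140 replicate 1 or CS-Atlantic replicate 3. Without any 1 of the other 7 libraries it was 0, with 4958 to 6207 genes at an unadjusted p under 0.05.

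Membership shifted with single libraries as well. Leaving out 1 of the 12 libraries in turn gave 3244 to 9513 cold-only genes. The count was lowest without CS-KY140 replicate 2 and highest without KY140 replicate 1, the untreated library with the fewest genes detected. It was 3560 and 3774 without CS-KY140 replicates 1 and 3, and 3739, 3750 and 3631 without CS-Atlantic replicates 1, 2 and 3. In all 12 of these fits, 971 of the 5978 genes (16.2%) were called only after cold, 525 of them higher and 446 lower in CS-KY140.

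For a narrower group the data bounded the difference at 25 °C. Among cold-only genes with a mean of at least 1 CPM in KY140 and in Atlantic at 25 °C, 129 had a 95% interval of the log2FC at 25 °C that lay wholly between −1 and 1. That level was set after the values were seen. Of the 129, 73 were higher and 56 lower in CS-KY140, out of 1113 tested genes with such an interval and level (11.6%). The remaining 984 were called at neither temperature. Cold-only genes were 8.8% of all tested genes, but such an interval excludes every gene called at 25 °C, so the 2 shares are not alike. Their median level was 45.5 CPM. After cold their median log2FC was 1.27 for the higher and −1.40 for the lower genes. A narrow interval favours genes with many counts and lets small differences pass, so both traits partly follow from the choice. The higher genes had a median cold response of 0.81 in KY140 and −0.28 in Atlantic, on the log2 scale. For the lower genes it was −0.30 in KY140 and 1.00 in Atlantic. The choice of these genes, on the same libraries, requires the responses of the cultivars to differ in this direction. These responses are therefore a description.

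Some cold-only genes were without a read in untreated leaves of both cultivars. Of 370 tested genes with 0 counts in all 6 untreated libraries, 35 (9.46%) were called higher and 107 (28.9%) lower in CS-KY140, against 14.2% and 22.1% of all tested genes. Such genes passed the filter on low counts only through a treated group, so these counts are partly fixed by it and are a description. The 35 averaged 1.02 to 102 CPM in CS-KY140 (median 2.61), and 22 of them were at 0 in all 3 CS-Atlantic libraries. The 107 averaged 0.940 to 63.7 CPM in CS-Atlantic (median 3.6), and 75 of them were at 0 in all 3 CS-KY140 libraries. More widely, 523 of the 3192 higher genes had 0 counts in all 3 CS-Atlantic libraries. Of the 2786 lower genes, 722 had 0 counts in all 3 CS-KY140 libraries. Among all 67894 tested genes, 2395 were at 0 in all 3 CS-Atlantic libraries and 6760 in all 3 CS-KY140 libraries. Among genes called in both, 1052 of the 6460 higher genes were at 0 in CS-Atlantic. Of the 12190 lower genes called in both, 4770 were at 0 in CS-KY140. A count of 0 allows up to 3 counts, which is 0.228 to 0.254 CPM in a CS-KY140 library and 0.243 to 0.267 CPM in a CS-Atlantic library, for counting error only. Among all tested genes, 5738 were at 0 in all 6 KY140 libraries and 1471 in all 6 Atlantic libraries.

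Position separated the cold-only genes little. Their share of the tested genes was 7.77% to 9.66% over the 12 chromosomes. By the copy digit in the identifier, 0 to 4, it was 8.36% to 9.16%. What the digit 0 stands for is not given in the sources used here. The share was 11.8% among genes on unplaced scaffolds (9.71% higher and 2.10% lower in CS-KY140) and 7.35% among genes that carry only a number. Of all tested scaffold genes, 27.2% were called higher and 12.1% lower after cold, with a median log2FC of 1.29, and 0.892 at 25 °C. Genes that carry only a number leaned the other way, with 15.2% higher and 38.7% lower after cold. Their median log2FC was −2.22 after cold and −2.59 at 25 °C. By mean level the share ran between 6.81% (2 to 5 CPM) and 11% (10 to 20 CPM). Next neighbours on a chromosome copy shared the class somewhat more often than the background. The next tested gene after a cold-only gene higher in CS-KY140 was of that class in 8.61% of cases, against 4.68% of all such pairs, and for the lower genes in 6.34%, against 4.14%. Genes called in both and lower in KY140 were followed by another in 30.3% of cases, against 16.7%.

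KY130, the third cultivar in the table, took no part in choosing the genes. Its treated group was nearer to CS-KY140 than to CS-Atlantic, on log2(CPM + 1), for 2319 of the 5978 cold-only genes (38.8%), against 40.6% of all tested genes. By direction it was nearer to CS-KY140 for 29.7% of the genes higher there (30.9% of all tested genes with a positive log2FC after cold) and for 49.2% of those lower there (48.8% of all with a negative one). These shares lie near the background, and KY130's reads were also counted at Atlantic's identifiers.

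Single cold-only genes show the pattern in the libraries. The 4 described first were chosen by a rule: untreated libraries that overlap, treated ones that do not, at least 1 CPM in both untreated groups and 10 CPM in the higher treated group, and then the smallest unadjusted interaction p, 2 in each direction out of 1103 higher and 585 lower genes that met it. Being chosen on their values, they are a description. Their identifiers carry no function.

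In CS-KY140, Soltu.Atl.09_3G000970 (chromosome 9) had 30.2, 29.4 and 43.5 CPM, against 4.22, 3.30 and 1.54 CPM in CS-Atlantic. At 25 °C it had 13.3, 13.6 and 11.2 CPM in KY140 and 12.3, 13.2 and 16.9 CPM in Atlantic. The untreated cultivars overlapped, and after cold every CS-KY140 library was above, and every CS-Atlantic library below, all untreated ones. Its log2FC was 3.51 ± 0.45 (SE) after cold and −0.15 ± 0.41 at 25 °C, with an interaction of 3.66 ± 0.60 that did not pass (edgeR FDR 0.0806). CS-KY130 had 30.7, 34.9 and 44.1 CPM, overlapping CS-KY140, but KY130 at 25 °C had about as much (36.4, 40.9 and 45.6 CPM).

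Soltu.Atl.01_2G021960 (chromosome 1) had 33.6, 11.5 and 46.2 CPM in CS-KY140, against 1.23, 1.52 and 0.728 CPM in CS-Atlantic. Its untreated levels were 20.6, 29.1 and 33.4 CPM in KY140 and 21.0, 14.6 and 35.9 CPM in Atlantic. Here the KY140 libraries overlapped across temperatures, and the treated Atlantic libraries alone stood low. The log2FC was 4.71 ± 0.60 after cold and 0.22 ± 0.50 at 25 °C, with an interaction of 4.49 ± 0.76 (edgeR FDR 0.0894). KY130 was split: CS-KY130 had 0.416, 0.343 and 17.3 CPM, and KY130 21.3, 21.8 and 23.8 CPM.

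On the lower side, Soltu.Atl.04_2G012860 (chromosome 4) had 42.2, 29.0 and 65.4 CPM in CS-KY140, against 341, 312 and 280 CPM in CS-Atlantic. Untreated libraries had 44.3, 41.7 and 40.6 CPM in KY140 and 30.7, 46.5 and 29.9 CPM in Atlantic. Only CS-Atlantic stood apart among these 4 groups. The log2FC was −2.77 ± 0.31 after cold and 0.24 ± 0.29 at 25 °C, and the interaction of −3.02 ± 0.42 missed the threshold (edgeR FDR 0.0511). CS-KY130 spread over 481, 286 and 87.9 CPM, and KY130 at 25 °C, with 148, 137 and 143 CPM, lay within that spread.

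Soltu.Atl.06_3G004020 (chromosome 6) had 34.7, 31.0 and 59.7 CPM in CS-KY140, against 483, 508 and 381 CPM in CS-Atlantic. Untreated leaves had 43.6, 37.7 and 74.5 CPM in KY140 and 92.7, 74.0 and 66.9 CPM in Atlantic. The treated groups were far apart and the untreated ones met at their edges. Its log2FC was −3.45 ± 0.34 after cold and −0.58 ± 0.31 at 25 °C, with an interaction of −2.87 ± 0.45 (edgeR FDR 0.0702). In CS-KY130 it had 117, 108 and 105 CPM, between the other treated groups. KY130 at 25 °C overlapped these levels, with 93.6, 94.8 and 113 CPM.

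The interaction of these 4 genes depended on the settings. All 4 passed with DESeq2 (adjusted p 1.05e-06 to 5.04e-05), with no filter on low counts (edgeR FDR 0.000376 to 0.0126) and without KY140 replicate 2 (edgeR FDR 0.0123 to 0.0293). Soltu.Atl.04_2G012860 also passed with upper-quartile factors (edgeR FDR 0.0448) and without CS-KY140 replicate 3 (0.0186) or KY140 replicate 1 (0.0387). Soltu.Atl.06_3G004020 passed without either of those libraries too (edgeR FDR 0.0393 and 0.0475), and with all 18 libraries in the fit it and Soltu.Atl.09_3G000970 passed (edgeR FDR 0.0324 for both).

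The 1 cold-only gene that passed the interaction was Soltu.Atl.11_3G015840 (chromosome 11), singled out after its values were seen. It had 21.0, 12.9 and 31.2 CPM in CS-KY140, against 277, 250 and 249 CPM in CS-Atlantic. In untreated leaves it had 21.1, 18.8 and 20 CPM in KY140 and 25.4, 22.5 and 31.8 CPM in Atlantic. The untreated groups lay close together without overlapping, and CS-Atlantic stood far above the other 3 groups. The log2FC was −3.58 ± 0.33 after cold and −0.41 ± 0.30 at 25 °C, with an interaction of −3.16 ± 0.43 (edgeR FDR 0.0418). The call was lost without any 1 of 9 of the 12 libraries (edgeR FDR 0.0548 to 0.153), and it held without KY140 replicate 1 or 2 or CS-KY140 replicate 3. CS-KY130 had 170, 116 and 49.7 CPM, overlapping KY130 at 25 °C (43.0, 99.6 and 63.6 CPM).

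**Figure D4:**
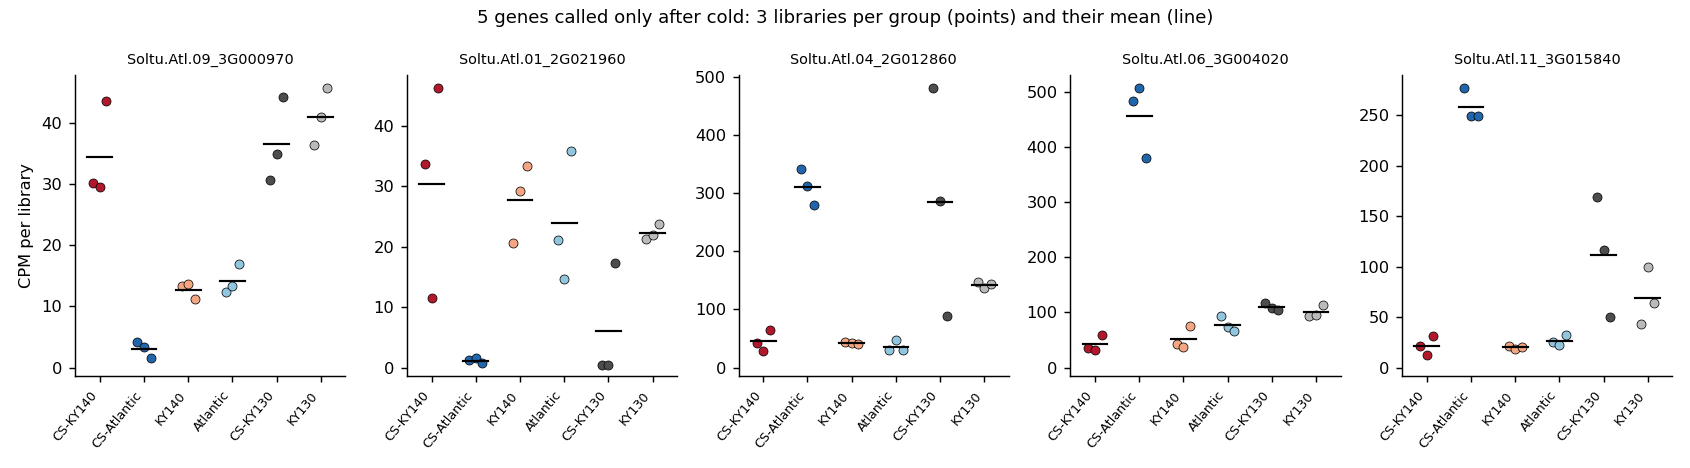
Points are CPM per library (3 per group, linear y axis from 0, 1 panel per gene) and lines the group means, for the 5 cold-only genes named in the text and the 6 groups. In the 3 genes on the right every CS-KY140 library is at 65.4 CPM or less and every CS-Atlantic library at 249 CPM or more, and in the 2 genes on the left every CS-KY140 library is at 11.5 CPM or more and every CS-Atlantic library at 4.22 CPM or less.

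The study named 12 enzyme genes for their response to cold in these same libraries, and its screen asked for a larger response in Atlantic than in KY140, so the sign of their interaction is partly set by that choice. After cold, 3 of the 12 were higher and 2 lower in CS-KY140, against backgrounds of 14.2% higher and 22.1% lower. At 25 °C, 4 were higher and 2 lower in KY140, against 13.7% and 24.9%. Of the 12, 5 were called at both temperatures, 1 only at 25 °C, 6 at neither and 0 only after cold, against 27.5%, 11.2%, 52.6% and 8.8% of all tested genes. With so few genes, 0 only after cold lies near that background. None passed the interaction (edgeR FDR 0.712 to 1), 0 had an unadjusted interaction p under 0.05, and 1 had a positive interaction. Their median log2FC was 0.38 after cold and 0.72 at 25 °C, against −0.28 and −0.48 over all tested genes.

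The first steps of the phenylpropanoid pathway differed by gene copy. StPAL, phenylalanine ammonia-lyase, makes cinnamic acid. Its gene Soltu.Atl.09_2G005110 had 26.5, 31.2 and 52.6 CPM in CS-KY140 and 35.8, 46.4 and 19.0 CPM in CS-Atlantic. The treated libraries overlapped, and the log2FC of 0.12 (95% interval −0.84 to 1.09) did not pass. At 25 °C it had 10.3 ± 4.33 CPM in KY140 and 7.79 ± 2.35 CPM in Atlantic (SD, n = 3).

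StCYP73A, cinnamate 4-hydroxylase, acts on cinnamic acid, and 3 copies of it are named. Soltu.Atl.06_4G021450 had 24.8, 21.3 and 52.8 CPM in CS-KY140, against 284, 392 and 308 CPM in CS-Atlantic. Its untreated levels were 5.64, 9.65 and 10.7 CPM in KY140 and 48.8, 25.0 and 74.5 CPM in Atlantic. KY140 was below Atlantic in every library at both temperatures, with a log2FC of −3.32 ± 0.46 after cold (edgeR FDR 0.000134) and −2.51 ± 0.44 at 25 °C (edgeR FDR 0.000791).

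Its neighbour in the identifiers, Soltu.Atl.06_4G021440, had 13.5, 19.8 and 59.9 CPM in CS-KY140, against 160, 154 and 139 CPM in CS-Atlantic. In untreated leaves it had 8.90, 7.49 and 3.79 CPM in KY140 and 19.2, 17.1 and 34.1 CPM in Atlantic. Again no libraries overlapped at either temperature, and the log2FC was −2.28 ± 0.51 after cold (edgeR FDR 0.00406) and −1.80 ± 0.51 at 25 °C (edgeR FDR 0.0144). The call at 25 °C was lost without Atlantic replicate 3 (edgeR FDR 0.0643) or KY140 replicate 3 (edgeR FDR 0.0549).

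The third copy, Soltu.Atl.06_1G015640 on chromosome copy 1, had 61.5, 74.2 and 152 CPM in CS-KY140 and 126, 155 and 155 CPM in CS-Atlantic. Untreated leaves had 9.69, 40.2 and 36.5 CPM in KY140 and 20.1, 14 and 27.8 CPM in Atlantic. The libraries overlapped at both temperatures, and it passed neither test, with a log2FC of −0.60 (95% interval −1.62 to 0.42) after cold and 0.48 (−0.54 to 1.51) at 25 °C. Summing the 3 copies removes the splitting of reads among them. Reads counted at copies not named, or not counted at all, are still outside the sum. The sum was 160 ± 91.2 CPM in CS-KY140 and 625 ± 69.0 CPM in CS-Atlantic, against 44.2 ± 17.6 CPM in KY140 and 93.5 ± 40.4 CPM in Atlantic (SD, n = 3). By library it was 99.9, 115 and 265 CPM in CS-KY140 and 570, 702 and 602 CPM in CS-Atlantic, without overlap. At 25 °C the sums were 24.2, 57.3 and 51.0 CPM in KY140 and 88.1, 56.1 and 136 CPM in Atlantic, with KY140 replicate 2 just above the lowest Atlantic library.

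St4CL, 4-coumarate:CoA ligase, activates coumaric acid for lignin and flavonoids. Its gene Soltu.Atl.03_3G030960 had 94.1, 40 and 145 CPM in CS-KY140 and 104, 126 and 95.2 CPM in CS-Atlantic, with overlap, and a log2FC of −0.22 (95% interval −1.28 to 0.85). It had 17.2, 18.1 and 8.31 CPM in KY140 and 21.4, 5.98 and 17.8 CPM in Atlantic at 25 °C, also overlapping, with a log2FC of −0.05 (−1.13 to 1.03). StCSE, caffeoyl shikimate esterase, works in the lignin branch. Its gene Soltu.Atl.04_4G005370 had 165, 140 and 178 CPM in CS-KY140, against 16.3, 37.5 and 20.2 CPM in CS-Atlantic. Untreated leaves had 311, 495 and 665 CPM in KY140 and 69.6, 70.6 and 152 CPM in Atlantic. StCSE was the 1 enzyme gene whose levels after cold were below those at 25 °C in both cultivars, and KY140 stayed above Atlantic in every library, with a log2FC of 2.71 ± 0.41 after cold (edgeR FDR 0.000265) and 2.33 ± 0.40 at 25 °C (edgeR FDR 0.000639).

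Of the 5 oxylipin and jasmonate genes, 2 were called higher in KY140 after cold and 3 at 25 °C. Lipoxygenases add oxygen to polyunsaturated fatty acids, and the LOX2S type supplies the jasmonate branch in the chloroplast. StLOX2S, Soltu.Atl.03_0G008370, had 49.5, 28.4 and 76.8 CPM in CS-KY140, against 17.8, 11.4 and 15 CPM in CS-Atlantic. At 25 °C it was near 0, with 0.318, 0.812 and 2.82 CPM in KY140 and 0.236, 0.141 and 0.378 CPM in Atlantic. The treated cultivars did not overlap, the untreated ones did, and the levels after cold exceeded all untreated ones.

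The StLOX2S log2FC of 1.81 ± 0.62 after cold (edgeR FDR 0.0350) sat near the threshold. It was lost without CS-Atlantic replicate 1, 2 or 3 or CS-KY140 replicate 1 or 3 (edgeR FDR 0.0738 to 0.155, and 1.40 on the log2 scale without CS-KY140 replicate 3). It was also lost with RLE factors (edgeR FDR 0.0658) and with all 18 libraries in the fit (edgeR FDR 0.0652). At 25 °C the log2FC was 2.35 ± 0.76 (edgeR FDR 0.0257), from 4, 9 and 35 counts in KY140 against 3, 2 and 5 counts in Atlantic. That call was lost without Atlantic replicate 1 or 2 or KY140 replicate 3, and without KY140 replicate 3 the value was 1.12 (edgeR FDR 0.217). StLOX1_5, a lipoxygenase of the LOX1 and LOX5 type, had 38.9, 34.9 and 118 CPM in CS-KY140 and 51.6, 23.2 and 46.3 CPM in CS-Atlantic for Soltu.Atl.01_4G023960, with overlap, and a log2FC of 0.66 (95% interval −0.74 to 2.07). At 25 °C StLOX1_5 had 13.2, 27.2 and 3.55 CPM in KY140 and 3.70, 9.57 and 7.03 CPM in Atlantic, and its log2FC of 1.11 did not pass (edgeR FDR 0.201).

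StAOC, allene oxide cyclase, sets the ring of the jasmonate precursor. Its gene Soltu.Atl.02_2G023780 had 90.6, 74.9 and 288 CPM in CS-KY140, against 119, 41.0 and 45.9 CPM in CS-Atlantic. Its levels at 25 °C were 41.5, 33.2 and 44.1 CPM in KY140 and 5.28, 8.02 and 10.1 CPM in Atlantic. The cultivars were apart at 25 °C, with a log2FC of 2.35 ± 0.54 (edgeR FDR 0.00444), and overlapped after cold, with 1.14 ± 0.52 (edgeR FDR 0.0980). The change between these, −1.21 ± 0.73, did not pass the interaction (edgeR FDR 0.712). Without CS-Atlantic replicate 1 the difference after cold was 1.74 and passed (edgeR FDR 0.0342).

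StOPCL1 is the CoA ligase that prepares the jasmonate precursor OPC-8:0 for shortening in the peroxisome. Its copy Soltu.Atl.12_3G004550 had 78.5, 103 and 157 CPM in CS-KY140, against 44.6, 47.5 and 29.4 CPM in CS-Atlantic. Without cold it had 34.2, 41.1 and 29.4 CPM in KY140 and 15.8, 9.50 and 10.7 CPM in Atlantic. KY140 was above Atlantic at both temperatures by nearly the same factor, with a log2FC of 1.48 ± 0.34 after cold (edgeR FDR 0.00437) and 1.54 ± 0.34 at 25 °C (edgeR FDR 0.00329).

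The other StOPCL1 copy, Soltu.Atl.12_2G005410, had 62.2, 84.3 and 118 CPM in CS-KY140 and 74.4, 52.0 and 43.9 CPM in CS-Atlantic. These overlapped, and the log2FC of 0.64 ± 0.31 missed the threshold after cold (edgeR FDR 0.121). At 25 °C the log2FC of 0.95 ± 0.31 passed the FDR (edgeR FDR 0.0291) but missed the fold. The sum of both copies was 201 ± 68.3 CPM in CS-KY140 and 97.3 ± 23.0 CPM in CS-Atlantic, and 59.5 ± 5.91 CPM in KY140 and 24.7 ± 2.53 CPM in Atlantic (SD, n = 3).

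StGAD, glutamate decarboxylase, makes GABA. Its gene Soltu.Atl.11_3G000340 had 57.7, 63.1 and 102 CPM in CS-KY140 and 81.1, 110 and 141 CPM in CS-Atlantic. At 25 °C it had 27.2, 37.1 and 29.1 CPM in KY140 and 39.5, 34.5 and 59.3 CPM in Atlantic. The cultivars overlapped at both temperatures, and StGAD passed neither test, with a log2FC of −0.57 (95% interval −1.26 to 0.12) after cold and −0.51 (−1.21 to 0.18) at 25 °C.

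**Figure D5:**
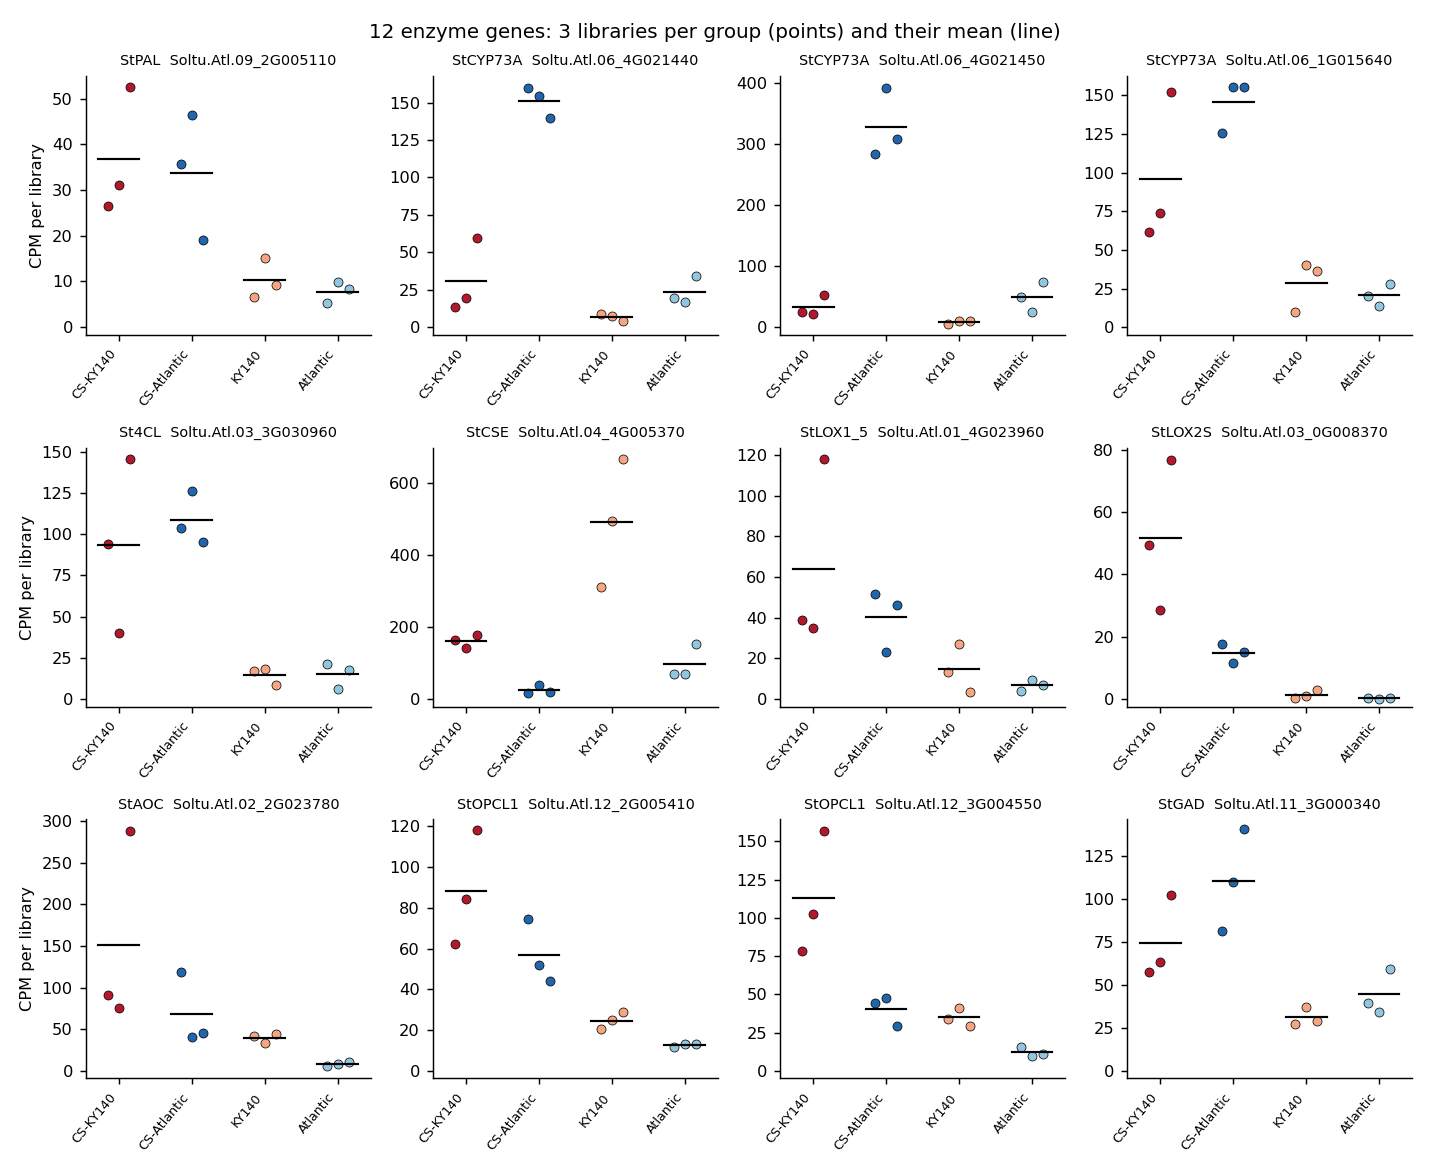
Points are CPM per library (3 per group) and lines the group means, for the 12 enzyme genes that the study names, 1 panel per gene copy with its own linear y axis. StCYP73A on chromosome copy 4 was lower in KY140 than in Atlantic and StCSE higher at both temperatures, while StPAL, St4CL and StGAD overlapped between the cultivars.

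The intervals of the interaction give the size of change that these data leave possible for the enzyme genes. The 95% interval ran from −1.65 to 1.10 for StPAL, from −1.04 to 0.92 for StGAD and from −1.06 to 0.93 for StOPCL1 (Soltu.Atl.12_3G004550), on the log2 scale. It was wider for StLOX2S, from −2.49 to 1.40, and for StAOC, from −2.77 to 0.36.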

How the data were processed

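Leaf poly(A) RNA was sequenced by a company as strand-specific libraries. The values are raw counts as deposited, whole reads for each gene in each library with no scaling by the authors. Aligner, counter, genome build, versions and the treatment of reads shared by copies: not given in the sources used here. All 18 columns were matched to a group by the library names in the labels, and 0 columns were left unmatched. A second table, which repeats the identifiers as names, was not used.

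The 12 libraries of both cultivars were fitted together in edgeR 4.0.16 (R 4.3.3, limma 3.58.1), with 1 coefficient per group, genes kept by filterByExpr (minimum count 10) and TMM scaling. Contrasts were CS-KY140 over CS-Atlantic, KY140 over Atlantic, and their difference, the interaction, each by the quasi-likelihood test with Benjamini-Hochberg adjustment over the 67894 genes tested. The fold and FDR thresholds are those of the study. The SE is the absolute log2FC over the root of its F statistic, and intervals are at 95%. Fold changes of genes at 0 in a group depend on edgeR's prior count. CPM values use the TMM-scaled library sizes, and ± after a mean is the SD over 3 libraries. KY130 libraries, placed on the same scale, were kept out of the fit. The tested genes took 98.01% or more of the counts in each of the 18 libraries, and library totals of 11390279 to 14971945 in the 12 set the counting precision.

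The gene group, the enzyme list and the naming rule were chosen with earlier results of these data known. Named were the 12 enzyme genes in the study's text and, by the rule stated with them, 2 cold-only genes in each direction. Genes named from the interaction were chosen after their values were seen. Alternatives were DESeq2 1.42.0, RLE, upper-quartile or no scaling factors, no low-count filter or one of 10 counts in at least 3 libraries, the replicate number as a block, separate fits per temperature, all 18 libraries, no fold threshold, and leaving out each library. Deviations of same-numbered libraries of different groups correlated weakly (r = −0.074 to 0.117). For CS-KY140 with KY140, r was 0.117, 0.0957 and 0.00668. This check cannot exclude pairs. The main fit did not take the numbers as pairs, and the block above was the alternative. The labels name no sequencing batch.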

Additional observations from a re-analysis of the deposited data

Results flagged for a closer look

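For 7 genes the cultivar difference after cold departed from that at 25 °C by edgeR's test of the interaction, and all 7 are given here. They are named because they passed, after their values were seen, and their identifiers carry no function.

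In 2 of them the cultivars changed places. Soltu.Atl.03_4G009730 (chromosome 3) had 64.1, 54.7 and 63.1 CPM in CS-KY140, against 135, 125 and 104 CPM in CS-Atlantic. Untreated leaves had 106, 79.5 and 91.9 CPM in KY140, against 33.2, 33.0 and 27.3 CPM in Atlantic. KY140 was below Atlantic in every library after cold and above it at 25 °C, with a log2FC of −1.003 after cold, at the fold threshold, and 1.57 at 25 °C. The interaction was −2.57 (edgeR FDR 0.0410). Soltu.Atl.07_1G004370 (chromosome 7) had 76.6, 66.4 and 149 CPM in CS-KY140, against 189, 185 and 160 CPM in CS-Atlantic. In untreated leaves it had 150, 204 and 144 CPM in KY140, against 37.9, 27.4 and 26.7 CPM in Atlantic. The libraries again did not overlap at either temperature, and the log2FC was −0.87 after cold, short of the fold threshold, and 2.44 at 25 °C. Its interaction was −3.31 (edgeR FDR 0.0410).

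Soltu.Atl.03_4G007920 (chromosome 3) had 0.811, 0.532 and 1.27 CPM in CS-KY140, against 104, 76.4 and 85.0 CPM in CS-Atlantic. Its levels at 25 °C were 23.2, 32.8 and 22.7 CPM in KY140, against 236, 235 and 173 CPM in Atlantic. KY140 was below Atlantic in every library at both temperatures, by more after cold, where its libraries held 10, 7 and 15 counts. The interaction was −3.63 (edgeR FDR 0.0410).

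Soltu.Atl.12_3G003980 (chromosome 12) had 379, 435 and 422 CPM in CS-KY140, against 4.22, 4.99 and 2.10 CPM in CS-Atlantic. At 25 °C it had 140, 217 and 223 CPM in KY140 and 0 counts in all 3 Atlantic libraries, so KY140 was at least 862-fold higher, taking 3 counts per library as the limit of a 0. KY140 was far above Atlantic at both temperatures, and the treated Atlantic libraries held 48, 56 and 26 counts. The interaction was −7.46 (edgeR FDR 0.0410), a fitted value that depends on the prior count. KY130 had 0 counts in all 6 libraries.

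Soltu.Atl.02_4G011870 (chromosome 2) had 22.8, 23 and 12.9 CPM in CS-KY140 and 38, 22.7 and 32.7 CPM in CS-Atlantic, with overlap. At 25 °C it had 0 counts in all 3 KY140 libraries and 9.14, 5.56 and 4.77 CPM in Atlantic, which was at least 25.9-fold higher. The interaction was 8.66 (edgeR FDR 0.0410), and it too depends on the prior count. CS-KY130 had 103, 99.3 and 105 CPM, above both treated groups.

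Soltu.Atl.01_2G014800 (chromosome 1) had 2.43, 2.28 and 2.11 CPM in CS-KY140, against 30.2, 32.4 and 19.9 CPM in CS-Atlantic. At 25 °C KY140 had 1, 1 and 0 counts, and Atlantic 37.1, 31.8 and 47.8 CPM. KY140 was below Atlantic in every library at both temperatures, by less after cold. The interaction was 5.62 (edgeR FDR 0.0410).

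Soltu.Atl.11_3G015840, the cold-only gene described above, had an interaction of −3.16 (edgeR FDR 0.0418). With the replicate number as a block none of the 7 passed (edgeR FDR 0.0922 to 0.105). With 1 library left out, each lost the call in at least 8 of 12 fits.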

How the results depend on the processing

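No named gene reversed its direction with a call under the 22 alternatives. The genes called after cold and at 25 °C stayed within 1.5 times their number under every alternative (18053 to 29438 after cold and 19844 to 25796 at 25 °C with 1 library left out). The cold-only genes numbered 12608 when the treated and untreated libraries were fitted separately, each with its own spread, and 3244 to 9513 when 1 library was left out. The interaction, 7 genes, gave 13 with upper-quartile factors, 375 with no filter on low counts, 22 with all 18 libraries, 954 with DESeq2, and 0 to 791 when 1 library was left out. With the replicate number as a block it gave 0, with 4746 genes at an unadjusted p under 0.05, while 21251 genes were called after cold and 5322 only after cold, and the block changed no other count by over 1.5 times. The causes were not tested. Scaling factors moved the median log2FC of all genes by up to 0.272 after cold and 0.269 at 25 °C. With them, 31.7% (RLE) to 45.3% (upper quartile) of the calls after cold and 29.7% to 42.5% of those at 25 °C were higher in KY140, against 39.2% and 35.5% with TMM. Under all 22 alternatives, 672 of the 5978 cold-only genes stayed cold-only, 363 higher and 309 lower in CS-KY140. For the 23 genes named or tabled, 1305 recomputed log2FC values kept their side of the threshold, 93 lost and 27 gained the call. Of the 1305, 36 changed sign, none with a call, among them StPAL after cold. Separate fits gave no interaction, since each holds only 1 temperature. For a single gene copy, a count of 0 allows 3 counts, or 0.228 to 0.267 CPM in a treated library.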
